A study of Mus musculus with 6 samples.

Results

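The insulinoma line and the lens line were compared by the strength of ATAC-seq signal at the sites that were open in both. A shared site was a Pax6-HIGH peak on chromosomes 1 to 19 that overlapped a Pax6-ON peak by at least 1 bp, and the Pax6-ON peak with the largest pileup was taken where there were several. There were 5308 shared sites, which used 19.5% of the 27172 Pax6-HIGH peaks and 56.3% of the 9418 Pax6-ON peaks on these chromosomes. For each site the log2 of the Pax6-HIGH over the Pax6-ON pileup was taken, and the median of all shared sites on the same chromosome was subtracted. This is called the adjusted log2 ratio below, and positive values mean more signal in Pax6-HIGH cells. The 300 highest and the 300 lowest sites are described by gene, position and function.

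ATAC-seq was performed on 3 untreated mouse cell lines with different Pax6 expression, in 2 replicates each. Pax6-HIGH (β-TC3) is an insulinoma line from transgenic mice whose beta cells carried the SV40 T antigen under an insulin promoter. Pax6-ON (MV+) is a line of cultured lens epithelial cells from a wild-type C57BL6 mouse. Pax6-OFF (RAG) is a line from a renal adenocarcinoma of the BALB/c strain. Each line was used as a single culture line, so the comparison is between these 2 lines and not between beta cells and lens in general. Nuclei were released with 0.2% NP40 for Pax6-ON and 0.1% NP40 for the other lines, and this step and the line cannot be told apart. Each reaction took 50000 nuclei and the libraries were amplified for 11 cycles. The authors pooled both replicates of a line in 1 peak call, so no value below has a replicate error and no test between the lines was possible.

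In ATAC-seq, the Tn5 transposase cuts exposed DNA, and the pileup at a peak summit is the number of sequenced fragments that cover it. The promoters of broadly expressed genes lie mostly in CpG islands and are open in most cell types. Enhancers lie at a distance from start sites and are often open in only some cell types, where they bind the transcription factors of that lineage. Beta cells are known for NKX6-1, PDX1, NEUROD1 and MAFA, which hold the insulin program, and lens epithelium for PAX6, FOXE3, PROX1 and MAF. The transcription factor AP-1, a dimer of FOS and JUN proteins, is known to bind distal sites in many cultured cells. Copies of a locus also add fragments, which is why the chromosome median was subtracted.

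Peak calling used 100254099 fragments of Pax6-HIGH and 130955836 of Pax6-ON, and the lowest called pileup was 25 and 30 fragments. A site had to reach that height in both lines, so sites open in a single line are not part of the comparison. Of 12 beta-cell markers, 5 had a peak within 1 kb of a start site in Pax6-HIGH cells (Nkx6-1, Nkx2-2, Neurod1, Mafa and Chga), while Pax6-ON had 2 and Pax6-OFF had 1. Ins1, Ins2, Iapp and Pdx1 had none in any line. Of 11 lens markers, Pax6-HIGH had 4, Pax6-ON had 3 (Pax6, Maf and Prox1) and Pax6-OFF had 2, and Foxe3, Pitx3, Cryaa, Sox2, Six3 and Gja1 had none in any line. Most lens markers thus had no promoter peak in the lens line. Of 17 immune and blood markers, 0 had a promoter peak in Pax6-HIGH and 1 (Kdr, 40 fragments) in Pax6-ON cells.

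To show what lay at each end, the reference sequence from 50 bases before to 50 after the Pax6-HIGH summit is given for 4 sites with a high and 4 with a low ratio. They are the first promoter, the first distal site and the first sites of the gene lists from each end, without sites in regions of high Pax6-ON background. Capitals mark each CG dinucleotide and each AP-1 heptamer (TGACTCA on either strand) on the plus strand of mm9.

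Ezh2, distal, chr6:47600889-47600989: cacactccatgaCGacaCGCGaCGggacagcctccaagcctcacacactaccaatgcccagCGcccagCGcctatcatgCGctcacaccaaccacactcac
Ctnna2, promoter, chr6:77929704-77929804: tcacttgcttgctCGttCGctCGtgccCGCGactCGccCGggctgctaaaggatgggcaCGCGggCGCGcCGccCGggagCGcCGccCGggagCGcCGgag
Fzd1, promoter, chr5:4758006-4758106: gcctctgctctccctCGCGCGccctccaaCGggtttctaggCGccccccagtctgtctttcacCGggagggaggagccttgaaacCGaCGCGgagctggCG
Cdkn2a, promoter, chr4:88940589-88940689: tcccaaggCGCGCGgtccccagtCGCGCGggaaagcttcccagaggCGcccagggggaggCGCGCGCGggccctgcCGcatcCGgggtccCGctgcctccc
Gm9931, distal, chr1:149899423-149899523: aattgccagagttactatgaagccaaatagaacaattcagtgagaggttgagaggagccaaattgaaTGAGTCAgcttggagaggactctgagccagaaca
Flrt3, promoter, chr2:140497157-140497257: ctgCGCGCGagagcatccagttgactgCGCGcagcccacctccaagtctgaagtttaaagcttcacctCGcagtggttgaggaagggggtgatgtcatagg
Foxa2, distal, chr2:147753991-147754091: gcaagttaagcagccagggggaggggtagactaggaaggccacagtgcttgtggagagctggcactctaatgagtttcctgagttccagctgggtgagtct
Adamts1, promoter, chr16:85801449-85801549: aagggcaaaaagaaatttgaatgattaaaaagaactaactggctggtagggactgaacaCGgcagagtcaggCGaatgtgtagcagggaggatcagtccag

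The 4 high sites held 7, 18, 10 and 14 CG dinucleotides in the order shown and no AP-1 heptamer. The low sites held 0, 6, 0 and 2, and the Gm9931 site held 1 AP-1 heptamer. The Foxa2 and Gm9931 sites, which had no CG, lay far from any coding start site.

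The lens line had fewer fragments at most shared sites. The Pax6-HIGH pileup was the larger at 4131 of the 5308 sites (77.8%), and the median ratio was 1.56 (0.64 on the log2 scale). These pileups are not scaled for depth, and the Pax6-ON call was the deeper (130955836 against 100254099 fragments). By chromosome the median log2 ratio ran from 0.24 on chromosome 14 to 1.41 on chromosome 6, with 1.02 on chromosome 1 and 1.00 on chromosome 16. After these medians were removed the adjusted log2 ratio had an SD of 0.74 and ran from -3.71 to 2.20. It was 1 or more at 259 sites (4.88%) and -1 or less at 612 sites (11.5%). The sites were also put in 4 groups of 1327 by their mean log2 pileup in both lines. From the weakest to the strongest group, 5, 72, 110 and 72 sites were at 1 or more. At -1 or less were 265, 140, 97 and 110. The lowest called heights and the subtracted medians leave weak sites less room above 0 than below it. The counts therefore cannot show in which line 2-fold changes were the more frequent. Beyond 4-fold there were 2 sites higher in Pax6-HIGH and 81 higher in Pax6-ON cells. With 1 median over all chromosomes, 439 sites were at 1 or more and 621 at -1 or less. This moved the share of Pax6-HIGH-higher sites among them from 29.7% to 41.4%. With the fold enrichment over local background in place of the pileup these counts were 126 and 202. Among the 2689 sites with at least 60 fragments in both lines they were 88 and 203, and this minimum is again a floor in both lines.

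**Figure D1:**
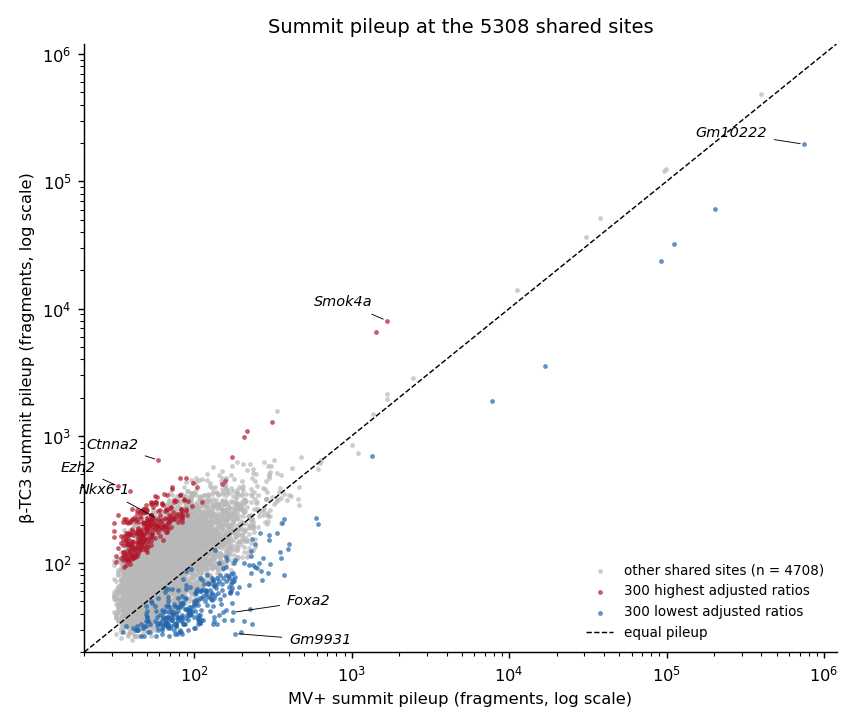
Pax6-ON (MV+, x axis) against Pax6-HIGH (β-TC3, y axis) summit pileup in fragments at each of the 5308 shared sites, both on log scales, with the dashed line at equal pileup. The 300 highest sites (red) and 300 lowest sites (blue) lie mostly below 1000 fragments, and a few sites of very high pileup reach 743921 fragments in Pax6-ON cells.

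**Figure D2:**
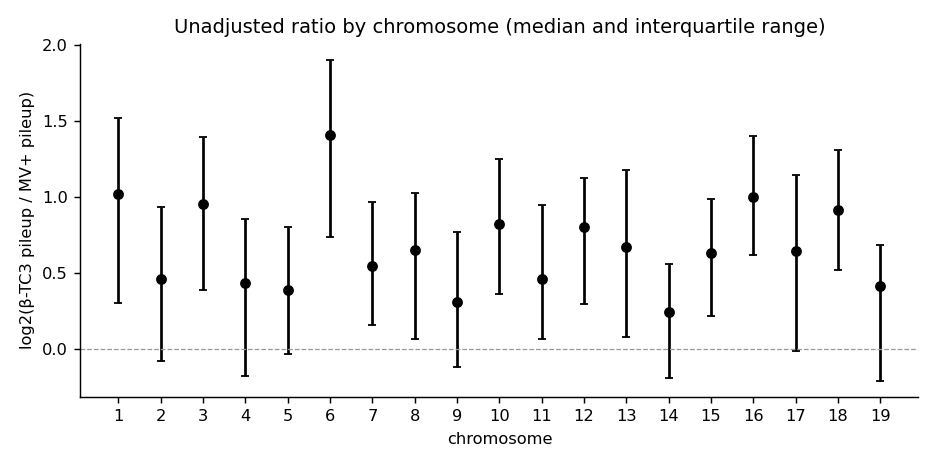
Unadjusted log2 ratio of Pax6-HIGH over Pax6-ON pileup for each of 19 chromosomes, as the median (point) and interquartile range (bar) over its shared sites. Chromosome 6 is the highest at 1.41 and chromosome 14 the lowest at 0.24.

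The exact 95% interval of a ratio was taken from the binomial share of both pileups. It covers counting error only, and any PCR copies left among the fragments would make it too narrow. The interval lay above 0 at 1267 sites and below 0 at 1424, and it included 0 at 2617 sites (49.3%). It excluded 0 at each of the 300 highest and 300 lowest sites, which were chosen by the same ratio. The lower bound was above 1 at 29 of the highest sites and the upper bound below -1 at 233 of the lowest.

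The members ran from 0.95 to 2.20 at the high end and from -3.71 to -1.41 at the low end. The last site inside the 300 highest was AI427809 at 0.95 and the first outside was Tmed1, also at 0.95. At the low end Prdm8 (-1.41) was the last inside and 2610036A22Rik (-1.41) the first outside. In the 300 highest sites the median pileup was 192 fragments in Pax6-HIGH and 49 in Pax6-ON cells, and in the 300 lowest it was 45.5 and 99. The weaker line was near its lowest callable height at both ends, with fewer than 60 fragments in Pax6-ON cells at 218 of the highest sites and in Pax6-HIGH cells at 203 of the lowest. The peaks of the stronger line were also longer, with a median of 913 bp in Pax6-HIGH against 374 bp in Pax6-ON cells at the high end and 454 bp against 560 bp at the low end. Over all shared sites Pax6-HIGH peaks were the longer, with a median of 794 bp against 461 bp.

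The ends differed in where the sites lay. Of the 300 highest sites, 257 (85.7%, 95% Wilson interval 81.2 to 89.2) had their summit within 1 kb of the start of a protein-coding transcript, called promoter sites here. Among all shared sites 70.2% were promoter sites (69.0 to 71.4) and among the 300 lowest 29.3% (24.5 to 34.7). These intervals treat the sites as independent draws and hold no error between cultures. With at least 60 fragments required in both lines the share at the low end was 47.0%. The remaining high sites were 2 in exons, 12 in introns and 29 between genes, and the remaining low sites were 5, 58 and 149. The share of sites over 50 kb from any coding start was 3.00% at the high end, 12.6% overall and 31.3% at the low end. The median GC content of the 201 bases around the summit was 68.2%, 64.7% and 52.7% in the same order.

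The promoter share fell through the ranking and was steepest at the low end. With the sites in 10 groups of equal size from high to low, 86.3% of group 1 were promoter sites, 77.2% of group 5, 64.6% of group 8 and 33.6% of group 10. Promoter sites had a median adjusted log2 ratio of 0.12 and distal sites of -0.40. Of the 3728 promoter sites 220 (5.90%) were at 1 or more and 216 (5.79%) at -1 or less, while of the 1580 distal sites 39 (2.47%) and 396 (25.1%) were. When promoters and distal sites of the same gene were set side by side, in the 350 genes that had both, the median of the distal sites was below the highest promoter site in 235 (67.1%), with a median difference of -0.30. Taking the highest of several promoter sites favours a lower distal value. The difference was -1 or less in 75 genes and 1 or more in 10.

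**Figure D3:**
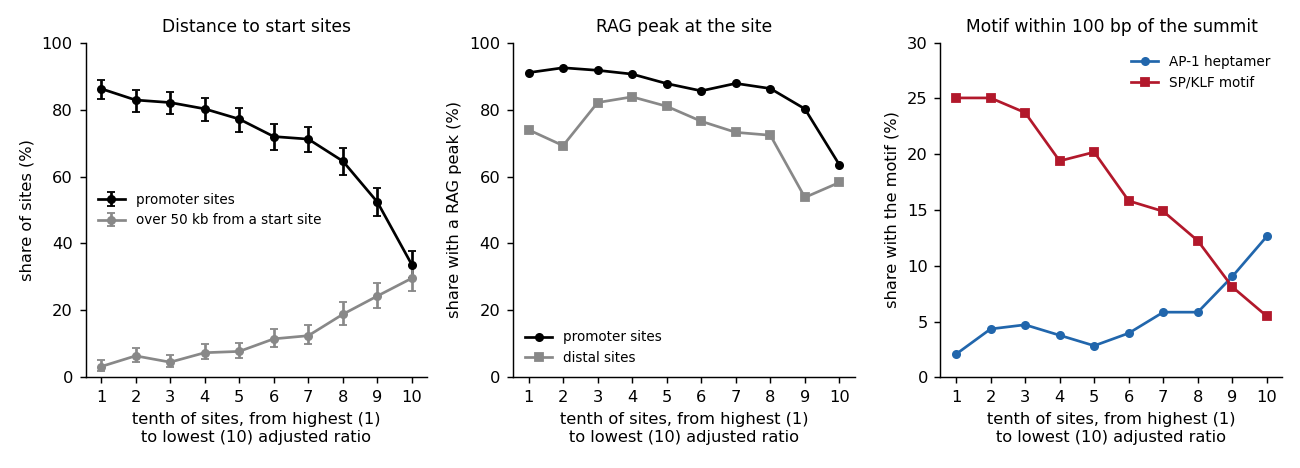
The 5308 shared sites in 10 groups by adjusted log2 ratio, from the highest (1) to the lowest (10), with the share of promoter sites and of sites over 50 kb from a start site (left, bars are 95% Wilson intervals), the share with a Pax6-OFF (RAG) peak (middle, promoter and distal sites apart) and the share with the AP-1 or the SP/KLF motif within 100 bp of the summit (right), all in percent. Promoter sites go from 86.3% to 33.6% and the AP-1 heptamer from 2.07% to 12.6%.

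The third line, which played no part in the choice of sites, was used as another readout, but the ends also differed in signal. The group of 1327 sites with the lowest mean log2 pileup held 6 of the 300 highest and 122 of the 300 lowest sites. In this group 48.2% were promoter sites, against 75.6% to 79.6% in the stronger groups. A Pax6-OFF peak overlapped 266 of the 300 highest sites (88.7%, Wilson interval 84.6 to 91.8), 81.8% of all shared sites (80.8 to 82.8) and 170 of the 300 lowest (56.7%, 51.0 to 62.2). The same order held within promoter sites, with 91.8%, 87.4% and 55.7%. Within distal sites the shares were 69.8% (54.9 to 81.4), 68.6% and 57.1% (50.3 to 63.6), with the share at the high end inside the interval of all distal sites. With at least 60 fragments required in both lines, 96.0% of the 300 highest and 77.7% of the 300 lowest sites had a Pax6-OFF peak. Overlap was counted over the Pax6-HIGH peak, which was longer at the highest (median 913 bp) than at the lowest sites (454 bp). The parts of overall signal and of peak length in these shares were not tested. Where Pax6-OFF had a peak its median pileup was alike at both ends, 75 fragments at the highest and 76 at the lowest sites. At the high end this lay between 194 fragments in Pax6-HIGH and 50 in Pax6-ON cells, and at the low end between 54.5 and 118. The Pax6-OFF pileup exceeded that of Pax6-HIGH at 2 of the 266 highest sites, 123 of the 170 lowest and 922 of all 4344 (21.2%). It exceeded that of Pax6-ON at 222 of the highest, 25 of the lowest and 2378 of all (54.7%). These counts are a description, since the Pax6-HIGH and Pax6-ON pileups chose the sites.

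Short motifs were searched within 100 bp of the Pax6-HIGH summit on both strands, and several differed in frequency between the ends. The AP-1 heptamer TGACTCA was found at 7 of the 300 highest sites (2.33%, Wilson interval 1.13 to 4.74), 292 of all 5308 (5.50%) and 47 of the 300 lowest (15.7%, 12.0 to 20.2). Among distal sites alone the shares were 6.98% (2.40 to 18.6), 13.7% and 20.3% (15.4 to 26.2), and among promoter sites they were 1.56%, 2.01% and 4.55%. Over all sites the share at the low end was 9% with at least 60 fragments required in both lines and 8.67% within 50 bp of the summit. The SP/KLF motif GGGGCGGGG, bound by factors of GC-rich promoters, was found at 25% of the highest, 17.0% of all and 4.33% of the lowest sites. NRF1, which regulates genes of mitochondria and growth, has the core GCGCATGC, and it was found at 3.67% of the highest and 4.05% of all sites but at 0 of the 300 lowest, where a count of 0 allows up to 1%. The E-box CAGATG of NEUROD and similar factors was found at 3.67%, 8.20% and 12.3%, at 4.65%, 14.8% and 16.5% of distal sites, and at 3.50%, 5.39% and 2.27% of promoter sites. Base composition moved along with these shares and its part in them was not tested.

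The other motifs were searched in the same way. The TEAD core GGAATG was found at 6.33% of the highest, 7.40% of all and 9.67% of the lowest sites, and the RUNX core TGTGGTT at 1.67%, 1.90% and 3.00%. The HNF1 core GTTAAT was found at 2 of the highest (0.667%) and 12 of the lowest sites (4.00%), against 1.66% of all. The CRE TGACGTCA, bound by CREB and ATF proteins, was at 2.67%, 2.34% and 0.333%, and the ETS core CCGGAAG at 9.33%, 11.8% and 6%. The CTCF core was at 2.33%, 2.62% and 3.67%, and the CArG box, bound by SRF, at 2.00%, 0.678% and 0.333%. NFY (CCAAT) was at 41.0%, 36.4% and 35.0%, the E-box CAGCTG at 13.3%, 11.0% and 13.7% and the E-box CACGTG of MYC and USF at 5.67%, 6.12% and 3.33%. The forkhead core GTAAACA was at 2.33%, 1.64% and 1.33%, the SOX core ACAATGG at 1.00%, 1.43% and 2.33%, and the homeodomain core TAATTA at 0.333%, 0.848% and 1.67%. The RFX core GTTGCCA was at 1.33%, 2.37% and 3.00% and the MAF core TGCTGAC at 1.67%, 3.37% and 4.67%.

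The highest ratio was at a site between genes on chromosome 6, 55599 bp from the nearest start site, that of Ezh2, the methyltransferase of Polycomb complex PRC2. It had 401 fragments in Pax6-HIGH and 33 in Pax6-ON cells, an adjusted log2 ratio of 2.20 with a counting interval of 1.68 to 2.76. The promoter of Ctnna2, the neuronal alpha-catenin, followed with 646 against 59 fragments and 2.05 (1.66 to 2.46), and no Pax6-OFF peak. Both lie on the chromosome with the largest median. An intron site near Neb, the gene of the giant muscle protein nebulin, had 235 against 45 fragments (1.93).

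Further promoters were among the 20 highest sites. Hook1, a dynein adaptor, had 341 against 67 fragments (1.91) and Capza2, an actin capping subunit, 367 against 39 (1.83). Upf2, a factor of nonsense-mediated decay, had 164 against 34 fragments (1.81), and the promoter shared by Ccdc115 and Imp4 had 208 against 31 (1.73). For Ahsa2, an HSP90 co-chaperone, the counts were 218 and 51 (1.63), for Rab33b, a Golgi GTPase, 212 and 37 (1.56), and for Cyp51, an enzyme of cholesterol synthesis, 200 and 52 (1.55). Each of these 7 promoters also had a Pax6-OFF peak, of 58 to 149 fragments. The Wnt receptor gene Fzd1 had 220 against 54 fragments (1.63) and the corepressor gene Runx1t1 209 against 51 (1.60). Both promoters, like the site near the protocadherin gene Pcdh7 (173 against 43, 1.62), had no Pax6-OFF peak.

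Apart from Cdkn2a, which is described with its list, the other high sites named here lay near Gm525 (256 against 59 fragments, 1.66) and at positions of high pileup. Tmem125, at 3905 bp, had 1098 against 217 fragments (1.90), and Sfi1, which encodes a centrin-binding protein, had 1276 against 312 (1.57). Smok4a, a sperm motility kinase gene, had 8049 against 1666 (1.62) and Gm9880 977 against 208 (1.58). Under fold enrichment in place of pileup Tmem125, Smok4a and Gm9880 changed sign, to -0.024, -0.25 and -0.0016. Sfi1 and Smok4a lay in regions where the local background of the Pax6-ON call was over 2 times its lowest value.

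**Figure D4:**
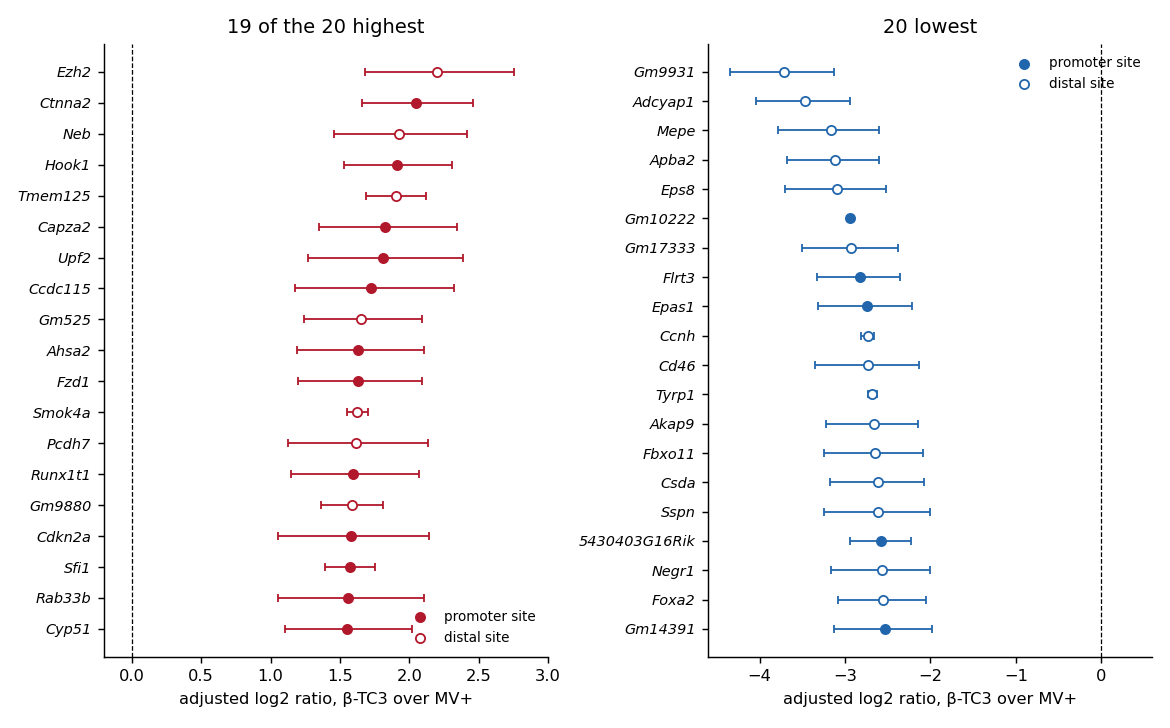
Adjusted log2 ratio of 19 of the 20 highest (left, red) and the 20 lowest (right, blue) shared sites, named by their nearest coding gene, with exact 95% counting intervals as bars, filled points for promoter and open points for distal sites. The highest is Ezh2 at 2.20 and the lowest Gm9931 at -3.71, and intervals are narrow where the pileup is large.

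At the other end, distal sites led. The lowest ratio was at a site 770401 bp from the nearest start site, that of Gm9931 on chromosome 1, with 28 fragments in Pax6-HIGH and 181 in Pax6-ON cells (-3.71, counting interval -4.34 to -3.13). A site 180827 bp from Adcyap1, the gene of the neuropeptide PACAP, had 33 against 234 fragments (-3.47) and an intron site near Mepe, which encodes a phosphoglycoprotein of bone matrix, 29 against 198 (-3.16). Near Apba2, a neuronal adaptor gene, 35 and 208 fragments were paired (-3.12), but the Pax6-ON summit lay 9164 bp away and outside the Pax6-HIGH peak. A site in an intron near Eps8, an actin regulator of growth factor signalling, had 33 against 106 (-3.09). With the genome-wide median the Eps8 site was at -2.32.

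Promoters were few among the 20 lowest sites. Flrt3, which encodes a transmembrane protein of FGF signalling, had 44 against 227 fragments (-2.83, -3.33 to -2.36), and Epas1, which encodes the hypoxia-inducible factor HIF-2alpha, had 36 against 154 (-2.74, -3.31 to -2.21). Neither had a Pax6-OFF peak. Promoters of the gene models 5430403G16Rik (81 against 369, -2.58) and Gm14391 (33 against 139, -2.53) had one. Distal sites lay near Gm17333 (35 against 133 fragments, -2.93), near Cd46, a complement regulator gene (31 fragments in Pax6-HIGH, -2.73), and near Akap9, a centrosomal and Golgi scaffold gene (36 against 174, -2.67). Others lay near the ubiquitin ligase gene Fbxo11 (33 against 132, -2.65), the Y-box gene Csda (42 against 97, -2.61) and the sarcospan gene Sspn (33 against 76, -2.61). With the genome-wide median the Csda site was at -1.85 and the Sspn site at -1.84. A site in an intron of the neuronal adhesion gene Negr1 had 35 against 107 fragments (-2.57). The beta-cell and endoderm factor Foxa2 had its site 117643 bp away, with 41 against 175 fragments (-2.55).

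The remaining low sites had very high pileup in every line. Gm10222 on chromosome 1 had 195816 against 743921 fragments (-2.95), and the Pax6-OFF pileup was 324876. A site 62235 bp from Ccnh, the cyclin H gene, had 1877 against 7837 (-2.73). A site 831184 bp from Tyrp1, a gene of melanin synthesis, had 3564 against 16842 (-2.68). By fold enrichment these 3 sites had -0.45, -0.22 and -0.22. Over all shared sites 181 lay where the Pax6-ON local background was over 2 times its lowest value, 4 of them among the highest and 43 among the lowest 300. Without them 242 sites were at 1 or more and 555 at -1 or less, and 290 of the highest and 257 of the lowest sites kept their place. The Pax6-HIGH background was not filtered in this way. Its median was 28.2 fragments at the 300 highest sites, against a lowest value of 11.8 in that call.

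Several sites of the same gene were rare at the high end, where no gene had 3. Cdkn1b, Sertad2 and Sfi1 had 2 each. At the low end Gm15319 on chromosome 8 was nearest to 19 sites and 4930467E23Rik to 4, within a run of 41 shared sites between 19713555 and 20037151, and all 23 had a high Pax6-ON background. Zfp600 had 5, Gm13145 had 4 (both on chromosome 4) and the immunoglobulin segment Ighv1-73 had 3. Runs of at least 3 low sites no more than 100 kb apart numbered 7, and 4 of them held a Zfp-named gene. No such run was found among the highest sites.

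Genes named Zfp, most of which encode zinc-finger proteins, were looked at after their values were seen. They were nearest to 171 shared sites, with a median of -0.39. Of these, 6 (3.51%) were among the highest and 22 (12.9%) among the lowest 300, where each end held 300 of all 5308 sites. Of the 171 sites 5 were at 1 or more and 37 at -1 or less, against 259 (4.88%) and 612 (11.5%) of all 5308 shared sites. Also chosen after the values were seen, 6 promoters among the lowest were picked from that end, so their number says nothing of such genes in general. They were Gbp3 with 57 against 118 fragments (-2.01), Gbp2 with 33 against 65 (-1.94), Samd9l with 42 against 57 (-1.85), Trim21 with 49 against 103 (-1.62), Plscr1 with 39 against 90 (-1.52) and Tlr4 with 33 against 66 (-1.44). The GBP proteins are interferon-induced GTPases and TLR4 is the receptor for lipopolysaccharide. Pax6-OFF had a peak at 3 of these promoters.

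Function was followed through 17 gene lists of 756 symbols, of which 754 were found in the annotation. They were nearest to 221 shared sites, 19 of them at 1 or more (8.60%) and 25 at -1 or less (11.3%), beside 4.88% and 11.5% of all shared sites. Their promoter sites had a median of 0.19 and their distal sites of -0.42. A list is described by these counts and its median, and neither was tested. By fold enrichment 8 list sites were at 1 or more and 11 at -1 or less, and with the minimum of 60 fragments 2 and 7 of 97 were. The sign of the median was the same under each of the 9 alternatives run for it in 3 lists (hormones and granules, AP-1, and replication). The immune list kept its sign in the 8 that left it a site, and the other 13 lists changed sign under at least 1.

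Of 12 sites near islet transcription factor genes, 1 was at 1 or more, 2 at -1 or less, and the median was -0.06. The promoter of Nkx6-1, which keeps beta-cell identity, was at rank 25 with 222 against 59 fragments (1.52, 1.10 to 1.96). It had no Pax6-OFF peak. The promoter of Irx2 had 222 against 75 fragments (0.89). Isl1, with 174 against 112 fragments, had an interval from -0.39 to 0.32, and Mafa, with 122 against 81, one from -0.46 to 0.38, so neither promoter could be told apart from its chromosome median. Beside the Foxa2 site, the low end held a site 66356 bp from Nkx6-2 with 34 against 66 fragments (-1.51).

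Pax6, the gene the lines were chosen for, had 3 shared sites. A promoter site 13 bp from a start had 175 fragments in Pax6-HIGH and 74 in Pax6-ON cells (0.78, 0.38 to 1.19). The others were lower, with 51 against 56 fragments at 784 bp (-0.59) and 49 against 52 at 64064 bp (-0.55, with an interval of -1.14 to 0.05). No Pax6-OFF peak lay at any of them. The neighbouring promoter of Rcn1 was among the 300 lowest sites, with 37 against 107 fragments (-1.99, -2.57 to -1.44), and that of Elp4 had 161 against 105 (0.16, -0.21 to 0.53).

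Of the beta-cell lists, 13 sites near genes of hormones, granules and exocytosis had a median of -0.43, with 0 at 1 or more and 1 at -1 or less. Syt7, a calcium sensor of exocytosis, was the highest (86 against 43 fragments, 0.58) and Rab3c, a GTPase of secretory vesicles, the lowest (38 against 55, -1.21). The promoter of Pcsk2, the prohormone convertase, had 150 against 163 fragments (-0.58, -0.91 to -0.25), so its ratio of Pax6-HIGH to Pax6-ON signal was below the median ratio of its chromosome. The median of this list was below 0 under the 9 alternatives run for it, from -0.45 to -0.12. The 7 sites of glucose sensing, channel and receptor genes ran from Cacna1a (43 against 44, -0.69) to Gpd2, the mitochondrial glycerol phosphate dehydrogenase (112 against 57, 0.52), and none was past 1 in either direction. Of 18 neuronal and neuroendocrine sites none was at 1 or more. Ptbp2, a splicing regulator, was the highest (123 against 40, 0.66), and an intron site of the Notch ligand Dner was among the lowest 300 (27 against 48, -1.85).

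Of 12 sites near lens and eye transcription factor genes, 1 was at 1 or more and 4 at -1 or less, which is 33.3% against 11.5% of all shared sites. Only 5 of the 12 were promoter sites, and among all shared sites 25.1% of distal but 5.79% of promoter sites were at -1 or less. All 4 list sites at -1 or less had a Pax6-OFF peak. The promoter of Otx1 had 33 against 77 fragments (-1.68), and sites near Eya1 (112 against 158, -1.52), Prox1 (74 against 112, -1.62) and Rax (35 against 68, -1.87) were distal. These encode regulators of early eye, lens and retina formation. The highest site, in an exon 7320 bp from a start of Tcfap2a, which encodes AP-2alpha, had 189 against 49 fragments (1.28, and 0.58 with the median within 5 Mb). The Prox1 promoter had 60 against 34 (-0.20, -0.83 to 0.45) and the Maf promoter 70 against 42 (0.08, -0.49 to 0.67). Of 4 crystallin and lens fiber sites, the Tdrd7 promoter was the highest (129 against 47, 1.02, and 0.48 with the median within 5 Mb) and that of Caprin2 the lowest (292 against 139, -0.34).

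**Figure D5:**
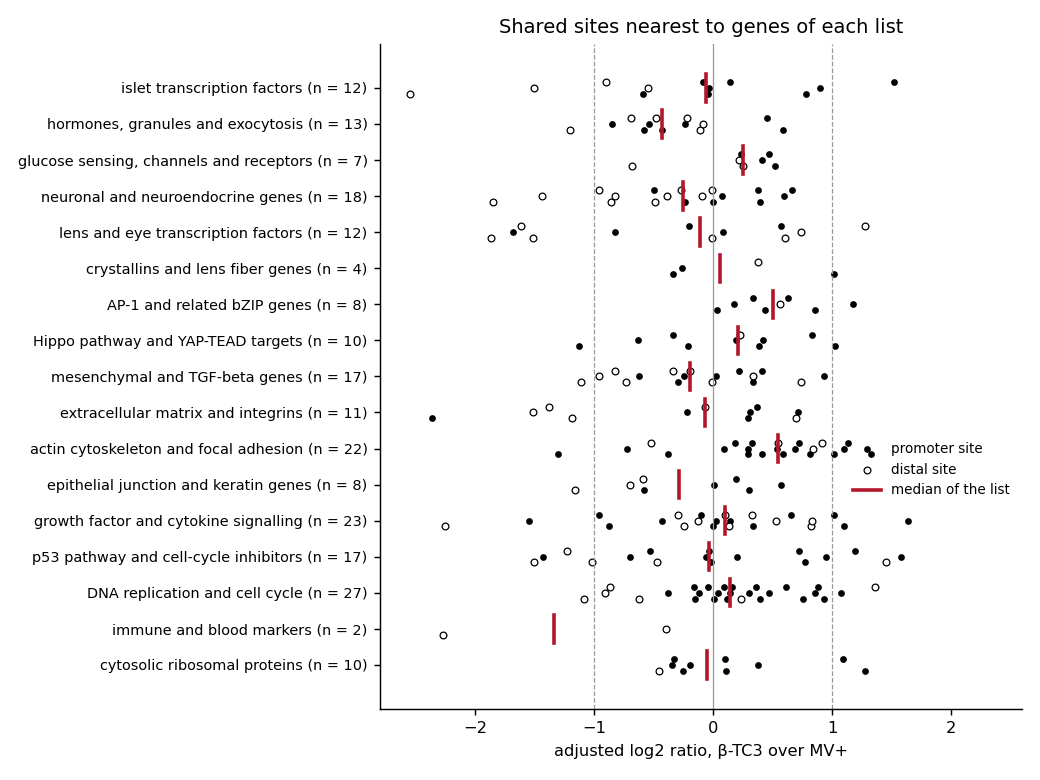
Adjusted log2 ratio of the 221 shared sites nearest to genes of the 17 lists, with filled points for promoter and open points for distal sites, a red bar at the median of each list, and dashed lines at -1 and 1. The actin list has a median of 0.54 and the hormone and granule list of -0.43, while most lists hold sites on both sides of 0.

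Genes of the actin cytoskeleton and focal adhesions had a median of 0.54 over 22 sites, with 4 at 1 or more and 1 at -1 or less. The promoters at 1 or more were those of Rhob, a small GTPase (205 against 47 fragments, 1.32, and 0.48 with the median within 5 Mb), 2900073G15Rik, a symbol of the myosin light chain gene Myl12a (161 against 47, 1.13), Myh10, a nonmuscle myosin (192 against 65, 1.10), and Actb, cytoplasmic actin (109 against 41, 1.02). The promoter of Tes, a focal adhesion gene, was the lowest (43 against 40, -1.30). With an overlap of 50% of both peaks the median was -0.09. All 8 sites of AP-1 and related bZIP genes were above 0, with a median of 0.50, which was 0.11 by fold enrichment. The Nfe2l2 promoter (158 against 51, 1.17) was the highest, and that of Jun (199 against 144, 0.03) the lowest. Sites that held the AP-1 heptamer, in contrast, had a median of -0.39, and among distal sites -0.63 against -0.38 for those without it.

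Growth factor and cytokine signalling had 23 sites, 3 at 1 or more and 2 at -1 or less. Besides Fzd1 the promoters of Lifr, the receptor for LIF (133 against 40 fragments, 1.10), and Insr, the insulin receptor (143 against 45, 1.02), were high. The Fgfrl1 promoter (57 against 127, -1.55) and a site near Pdgfc (30 against 74, -2.26) were low. Of 10 Hippo pathway sites the promoter of Frmd6 was the highest (142 against 40, 1.03) and that of Vgll3 the lowest (94 against 103, -1.13). The 17 mesenchymal sites ran from Cnn3 (203 against 55, 0.93) to a site near S100a10 (61 against 68, -1.11).

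Extracellular matrix and integrin genes had 11 sites, 0 at 1 or more and 4 at -1 or less (36.4%, against 11.5% of all shared sites). The 6 promoter sites had a median of 0.30 and the distal sites of -1.19. Among all shared sites 25.1% of distal but 5.79% of promoter sites were at -1 or less. The promoter of Adamts1, a secreted protease, had 33 against 85 fragments (-2.37), and a site 30862 bp from Itgb1, the beta1 integrin gene, 60 against 109 (-1.51). The Itgb1 promoter itself had 160 against 83 (0.29, -0.10 to 0.70). Lamc1, a laminin chain gene, was the highest (186 against 56, 0.71). Of the 8 epithelial junction sites, 0 were at 1 or more and 1 at -1 or less, a site near Epcam (35 against 50, -1.16). The immune list had 2 sites, both near Cdh5, and the one at 350250 bp had 36 against 111 fragments (-2.28).

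Among 17 sites of the p53 pathway and cell-cycle inhibitor list, 3 were at 1 or more and 4 at -1 or less. The promoter of Cdkn2a, which encodes the inhibitor p16 and the p53 activator p19, had 150 against 37 fragments (1.58, 1.05 to 2.14). Both sites of Cdkn1b, the gene of p27, were high, with 261 against 43 at the promoter (1.2) and 240 against 33 at 8418 bp (1.46). The Fas promoter, of the death receptor, had 44 against 89 (-1.43). Gadd45a, a p53 target, had 411 against 157 fragments at its promoter (-0.02, -0.29 to 0.26) but 126 against 135 at an intron site 29446 bp away (-1.51), which was among the lowest 300. This site was at -0.74 with the genome-wide median and at -0.64 by fold enrichment.

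Of 27 DNA replication and cell-cycle sites, 2 were at 1 or more and 1 at -1 or less, with a median of 0.14. They were a site 21874 bp from Ccne1, the cyclin E1 gene (169 against 45, 1.36, and 0.39 with the median within 5 Mb), and the promoter of E2f3, an activator of S phase genes (306 against 91, 1.08), which was -0.20 by fold enrichment. The lowest was a distal site near Rfc3 (29 against 47, -1.09). Of 10 ribosomal protein sites the promoters of Rpl30 (150 against 40, 1.27) and Rpl7 (190 against 44, 1.09, and -0.0050 by fold enrichment) were high, and the lowest was a site near Rps29 (42 against 33, -0.45).

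Values at both ends depended on the scale of comparison. Fold enrichment divides the pileup by the background of the surrounding region. In Pax6-HIGH cells this background had a median of 28.2 fragments at the highest sites, 17.7 at all and 12.4 at the lowest. In Pax6-ON cells its median was 14.2 in each of these sets, which is the lowest value of that call. By fold enrichment the 300 highest sites had a median of 0.69, with 23 below 0, and the 300 lowest had -0.96, with 2 above 0. Chosen anew by fold enrichment, 78.7% of the highest and 51.7% of the lowest 300 were promoter sites. When the median of the shared sites within 5 Mb was subtracted in place of the chromosome median, the same 300 highest sites had a median of 0.80 and 97 stayed at 1 or more, while the 300 lowest had -1.57 and 242 stayed at -1 or less. Stretches of 10 Mb with at least 10 shared sites had medians from -1.30 to 0.79 after the chromosome median was removed, and 26 of 222 were at 0.5 or more and 19 at -0.5 or less.

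The 2-fold calls of named sites depended on the scale as well. Of 71 named sites, 35 were no longer at 1 or more or at -1 or less by fold enrichment, 17 with the median within 5 Mb and 5 with the genome-wide median. By fold enrichment 26 of 37 named high sites and 9 of 34 named low sites lost the call. The high ones included Ezh2 (0.77), Ctnna2 (0.71), Hook1 (0.81), Fzd1 (0.84) and Nkx6-1 (0.72). Besides the sites already given with such a value, those that lost the call with the median within 5 Mb included Fzd1 (0.94), Cyp51 (0.86), Pcdh7 (0.85) and Ahsa2 (0.84) of the 20 highest. Of the list members, Frmd6 (0.99), Insr (0.92), 2900073G15Rik (0.88), Lifr (0.86), Nfe2l2 (0.71), E2f3 (0.49), Rpl7 (0.43) and the distal Prox1 site (-0.95) lost it. With the genome-wide median Nfe2l2 (0.99), Myh10 (0.93), Tdrd7 (0.82) and Actb (0.77) lost it.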

How the data were processed

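ATAC-seq was measured in 6 samples, 2 replicates of each of 3 cell lines, and the authors pooled both replicates of a line before peak calling. Per the submitters' processing notes, reads were trimmed with Trim Galore 0.4.1, aligned to mm9 with Bowtie2 2.2.6, handled with SAMtools 1.6 and bedtools, and peaks were called with MACS2 2.1.1 at a q-value of 0.05. Per the file headers, paired-end fragments were used without a Tn5 shift, without a control sample and with duplicates kept. Whether duplicates had been removed before the call is not given in the sources used here. The deposited pileup is an unscaled signal, the number of fragments at the summit. The deposited fold enrichment is a ratio of this pileup to the local background, and the deposited −log10 q-value is from the same caller. Sex and unplaced chromosomes were left out.

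Summits were placed by the nearest start of a protein-coding transcript in GENCODE M1 on NCBIM37, the assembly of mm9, so a gene named for a distal site is its nearest gene and not a shown target. Motifs (19) were searched on both strands within 100 bp of the Pax6-HIGH summit. Of 756 list symbols, 754 were found, 9 of them under another symbol. Some items are not reported here. Sites named in the text were otherwise the 20 at each end, genes nearest to 3 or more of the 300 sites, list members among the 300, the extremes of each list and the sites at the threshold. The Zfp genes, 6 promoters picked from the low end, the Pax6 locus and the other list promoters given for comparison were chosen after their values were seen. The members and lists were chosen with earlier results of these data known.

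The site pairing was tested on simulated data. Alternatives were another overlap, q-value, pileup minimum, measure, centring, set size, promoter distance, motif window and centre, and list distance. Leaving out sites of high Pax6-ON background and sites with summits over 200 bp apart were added after seeing the data. Python 3.11.15, pandas 2.3.3, NumPy 2.4.6, SciPy 1.17.1, pysam 0.24.0 and matplotlib 3.10.9 were used. With 100254099 and 130955836 fragments, a site at the lowest called height of 25 or 30 fragments has a wide counting interval, and the number of PCR copies behind it is unknown.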

Additional observations from a re-analysis of the deposited data

How the results depend on the processing

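No paired analysis was possible because both replicates of each line were pooled in 1 call, for which reason leaving out single replicates was not possible either. The shared sites numbered 3511 with an overlap of 50% of both peaks and 2689 with a pileup of at least 60 in both lines. Sites at 1 or more numbered 88 with that pileup minimum, 126 by fold enrichment, 439 with a genome-wide median and 171 with the median within 5 Mb. Sites at -1 or less numbered 351 with the 50% overlap, 203 with the pileup minimum and 202 by fold enrichment. The promoter share of the highest sites was 78.7% by fold enrichment, and that of the lowest was 47.0% with the pileup minimum, 51.7% by fold enrichment and 37.0% with the genome-wide median. The share with a Pax6-OFF peak was 96.0% (pileup minimum) and 83.7% (5 Mb) in the highest and 77.7% (pileup minimum) and 66.3% (fold enrichment) in the lowest sites. The AP-1 share of the lowest sites was 9% with the pileup minimum, 21.0% in the lowest 100 and 8.67% within 50 bp of the summit. The lists held 138 sites with the 50% overlap and 97 with the pileup minimum. Of these, 2 with the pileup minimum and 8 by fold enrichment were at 1 or more. At -1 or less were 14 with the 50% overlap, 7 with the pileup minimum, 11 by fold enrichment and 13 within 50 kb. By fold enrichment 5 named sites changed sign, Tmem125 (-0.024), Smok4a (-0.25), Gm9880 (-0.0016), Rpl7 (-0.0050) and E2f3 (-0.20). No named site changed sign under the other alternatives that kept it, but of 71 named sites 35 lost the 2-fold call by fold enrichment, 17 with the median within 5 Mb and 5 with the genome-wide median. Of the 300 highest and 300 lowest sites, 107 and 171 kept their place by fold enrichment and 82 and 97 with the pileup minimum. The cause was not tested.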
